A study of Sus scrofa with 8 samples.

Results

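The genes described here make or carry heparan sulfate, the sulfated sugar chain of cell surface and matrix proteoglycans. They are 10 of the 24358 genes in a pig RNA-seq count table. They comprise the sulfotransferases HS3ST1, HS3ST2, HS6ST1, HS6ST2 and NDST1, the chain polymerase EXT1, the syndecans SDC1 and SDC4 and the glypicans GPC3 and GPC4. The 10 symbols were selected on measured values, since they were proposed with the difference between IRF-1 overexpressing and control cells in view, so their values in that comparison are a description and carry no test. The gene name table gave 9 of the symbols, and SDC4 was found after the table had been seen, as the unnamed gene whose span matched SDC4 of RefSeq on the same assembly (Sscrofa11.1). Coordinates below are on that assembly, and none of the 10 genes shares exon bases with another gene of the table. All 10 had a row, and 9 passed the filter on low counts, which HS3ST1 did not.

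The study asked what the transcription factor IRF-1 does in porcine induced pluripotent stem cells (piPSCs). Porcine embryonic fibroblasts with an OCT4-tdTomato reporter had been reprogrammed with doxycycline-inducible lentiviral factors, and the resulting DOX-hLIF-2i piPSCs depend on doxycycline and still express the introduced factors. The IRF-1 overexpressing cells (2 libraries, replicates 1 and 3) carried PB-CAG-IRF1-Flag, in which the broadly active CAG promoter drives a tagged IRF-1, and the control cells (2 libraries, replicates 6 and 8) carried PB-CAG-Flag. The methods name the transposase plasmid PCAGPBase for the overexpressing cells only. Transfected cells were selected with puromycin and passaged, and feeder cells were removed before RNA was taken. The labels name domestic pig, an adult stage and an LCDMV culture system, which differs from the medium in the methods. The growth protocol given with the libraries names PC-iPS cells, while the paper describes DOX-hLIF-2i piPSCs. The genotype label reads overexpression of IRF-1 for all 4 libraries, and the division into groups follows the study's own key to the library names. Which of the piPSC lines was used, and whether replicates came from separate cultures, is not given in the sources used here, so p-values measure only the spread between these libraries, which may be technical.

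IRF1 itself, on chromosome 2, 134776124 to 134783819, minus strand (identifier ENSSSCG00000014277), had 8206 and 5485 counts in the overexpressing cells and 55 and 56 counts in the control cells. These are 330.1 CPM in overexpressing replicate 1, 264 CPM in overexpressing replicate 3, 3.52 CPM in control replicate 6 and 3.20 CPM in control replicate 8. CPM is the count as a share of the library's total after TMM, a correction for library composition. Below, pairs of values are given for replicates 1 and 3 and for replicates 6 and 8, in that order. The overexpressing libraries stood far above the controls (log2 fold change 6.46, SE 0.21, edgeR quasi-likelihood adjusted p = 3.65e-05). The count does not separate the transgene from the pig's own gene. Library totals were 24923319 and 20858333 counts in the overexpressing cells and 15925429 and 17097669 counts in the control cells.

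Heparan sulfate is built on a core protein from a short linker. The EXT proteins lengthen the chain, NDST enzymes replace acetyl groups with sulfate, an epimerase and a 2-O-sulfotransferase modify the uronic acid, and 6-O- and 3-O-sulfotransferases add further sulfates. The resulting patterns bind FGFs, BMPs, WNTs and other ligands. In mouse embryonic stem cells, loss of EXT1 or of NDST1 and NDST2 is known to impair FGF signaling and exit from self-renewal.

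The 3-O-sulfotransferases, which add the rarest modification of the chain, differed between the groups in their makeup. HS3ST2, on chromosome 3, 23251941 to 23366324, minus strand (identifier ENSSSCG00000036475), had 296 and 604 counts in the overexpressing cells and 0 and 0 counts in the control cells. It was thus counted in each overexpressing library and in no control library. With a floor of 3 counts in each control library, its mean CPM was at least 113-fold higher in the overexpressing cells, and at least 65.5-fold without overexpressing replicate 3. HS3ST1, whose product is known for making the antithrombin-binding sequence of heparin, was at 0 counts in all 4 libraries, which allows up to 0.121, 0.144, 0.192 and 0.171 CPM in overexpressing replicates 1 and 3 and control replicates 6 and 8. These limits cover counting error only. In such bulk libraries, fewer cells of a type and less RNA per cell cannot be told apart.

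The other genes of this family were listed as a family rather than one by one and were tested. HS3ST4 was at 0.402 and 0.817 CPM in the overexpressing cells and 10.9 and 6.23 CPM in the control cells, and it fell in the overexpressing cells (log2 fold change -3.82, SE 0.49, adjusted p = 0.00152, edgeR). HS3ST5 went the other way, with 130 and 60 counts in the overexpressing cells and 0 and 2 counts in the control cells, and the edgeR adjusted p was 0.00186. Neither HS3ST4 nor HS3ST5 would have passed the filter on the group in which it was lower, but both were also called with no filter. The ratio of the summed counts of HS3ST5 per effective library size was 68.9, with an exact 95% counting interval from 18.8 to 573. With control replicate 6 left out, the ratio was 36.4. With control replicate 8 left out, the mean CPM was at least 21.1-fold higher against the floor. HS3ST3B1 was at 10.9 and 11.05 CPM in the overexpressing cells and 11.4 and 7.09 CPM in the control cells and was not called (log2 fold change 0.25, SE 0.29, adjusted p = 0.561, edgeR). Its value is uncertain, since 3809 of its 5243 exon bases are shared with COX10 on the same strand and the near-identical catalytic domain of HS3ST3A1 can split reads. HS3ST3A1 and HS3ST6 had no more than 8 counts in any library and did not pass the filter.

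Levels of different genes were compared as RPKM, which is CPM per kilobase of exon. Of the summed RPKM of the 7 HS3ST genes, HS3ST4 took 6.24 and 9.01% in the overexpressing cells and 81.6 and 81.2% in the control cells. HS3ST2 took 31.5 and 54.6% in the overexpressing cells, beside HS3ST3B1 with 33.6 and 24.1% and HS3ST5 with 27.2 and 10.7%. The order of HS3ST2 and HS3ST3B1 differed between the overexpressing replicates. HS3ST3B1 shares 3809 of its 5243 exon bases with COX10, so its level is uncertain per length and by counts. The shares, order and sums of this family carry that uncertainty. The summed RPKM itself was 6.21 and 8.73 in the overexpressing cells and 12.8 and 7.39 in the control cells, which overlap between the groups. The RPKM of HS3ST4 rests on a short gene model of 1038 exon bases against 6084 for HS3ST2. As shares of counts without length, HS3ST4 took 1.40 and 1.86% in the overexpressing cells and 47.5 and 46.4% in the control cells, and HS3ST2 took 41.4 and 66.0% in the overexpressing cells. On that scale HS3ST3B1 took 38.0 and 25.1% in the overexpressing cells and 50.0 and 52.8% in the control cells. It thus stood first in both controls and HS3ST2 in both overexpressing libraries, so the order depends on the scale. The total depends on it too, since the summed CPM of the family was 28.8 and 44.0 in the overexpressing cells and 22.9 and 13.4 in the control cells, higher in both overexpressing libraries than in both controls.

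HS6ST1 and HS6ST2, which place sulfate at the 6-O position that many FGF complexes need, had opposite directions. HS6ST1, on chromosome 15, 59066613 to 59108772, plus strand (identifier ENSSSCG00000022197), was at 100.8 CPM in overexpressing replicate 1, 123 CPM in overexpressing replicate 3, 482 CPM in control replicate 6 and 347 CPM in control replicate 8. Both overexpressing libraries lay below both controls (log2 fold change -1.89, SE 0.20). HS6ST2, on chromosome X, 109039919 to 109044695, minus strand (identifier ENSSSCG00000021375), was at 5.75 and 7.40 CPM in the overexpressing cells and 2.75 and 3.03 CPM in the control cells. Here both overexpressing libraries lay above both controls (log2 fold change 1.18, SE 0.32). HS6ST3 had 0 counts in all 4 libraries, on a gene model of 876 exon bases. Per length, HS6ST1 was the main transcript of this family in each library. Of the summed RPKM it took 90.1 and 89.6% in the overexpressing cells and 98.9 and 98.3% in the control cells. HS6ST2 held 9.94 and 10.4% in the overexpressing cells and 1.09 and 1.66% in the control cells, and of the counts without length 5.40 and 5.67% in the overexpressing cells and 0.567 and 0.865% in the control cells. The summed RPKM of the family was 27.6 and 33.9 in the overexpressing cells and 120.1 and 86.9 in the control cells, without overlap between the groups.

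NDST1, a bifunctional enzyme that starts sulfation of the chain, lies on chromosome 2, 151463230 to 151522773, plus strand (identifier ENSSSCG00000032731). It was at 55.7 CPM in overexpressing replicate 1, 49.6 CPM in overexpressing replicate 3, 68.4 CPM in control replicate 6 and 44.6 CPM in control replicate 8. The controls lay on either side of the overexpressing libraries, so the groups overlapped (log2 fold change -0.10, SE 0.21), and the sign turned to 0.24 without control replicate 6. NDST1 held between 58.1 and 67.9% of the summed RPKM of the NDST genes in the 4 libraries, and between 48.9 and 59.3% of their counts. NDST2 was not called, at 37.8 and 39.7 CPM in the overexpressing cells and 31.7 and 31.1 CPM in the control cells (log2 fold change 0.30, SE 0.15, adjusted p = 0.182, edgeR). NDST3 fell, at 3.42 and 4.28 CPM in the overexpressing cells and 15.2 and 15.5 CPM in the control cells (log2 fold change -1.99, SE 0.26, adjusted p = 0.00157, edgeR). Its share of the NDST sum was 1.93 and 2.54% in the overexpressing cells and 7.39 and 9.92% in the control cells, and its share of the counts 3.53 and 4.57% in the overexpressing cells and 13.1 and 17.0% in the control cells. NDST4 had at most 1 count in a library.

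EXT1, which forms the chain polymerase with EXT2, lies on chromosome 4, 20645038 to 20935759, plus strand (identifier ENSSSCG00000006009). It was at 70.0 and 68.0 CPM in the overexpressing cells and 52.2 and 49.9 CPM in the control cells. The replicates lay close together and the groups did not overlap (log2 fold change 0.44, SE 0.14). EXT2 was at 75.6 and 76.9 CPM in the overexpressing cells and 103 and 85.7 CPM in the control cells and was not called (log2 fold change -0.31, SE 0.15, adjusted p = 0.163, edgeR). Of the summed RPKM of the EXT and EXTL genes, EXT1 took 30.2 and 29.2% in the overexpressing cells and 19.6 and 20.2% in the control cells, and EXT2 took 52.3 and 53.0% in the overexpressing cells and 62.0 and 55.6% in the control cells. As shares of counts without length, EXT1 took 31.4 and 30.3% in the overexpressing cells and 20.9 and 19.9% in the control cells, EXT2 33.9 and 34.3% in the overexpressing cells and 41.3 and 34.2% in the control cells, and EXTL3 30.4 and 31.0% in the overexpressing cells and 31.9 and 39.8% in the control cells. EXT2 thus stood first in each library per length, but below EXTL3 in control replicate 8 by counts. None of EXTL1, EXTL2 and EXTL3, related glycosyltransferases, was called by edgeR, with log2 fold changes of 0.92 (SE 0.57), -0.67 (SE 0.22) and -0.39 (SE 0.16).

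**Figure D1:**
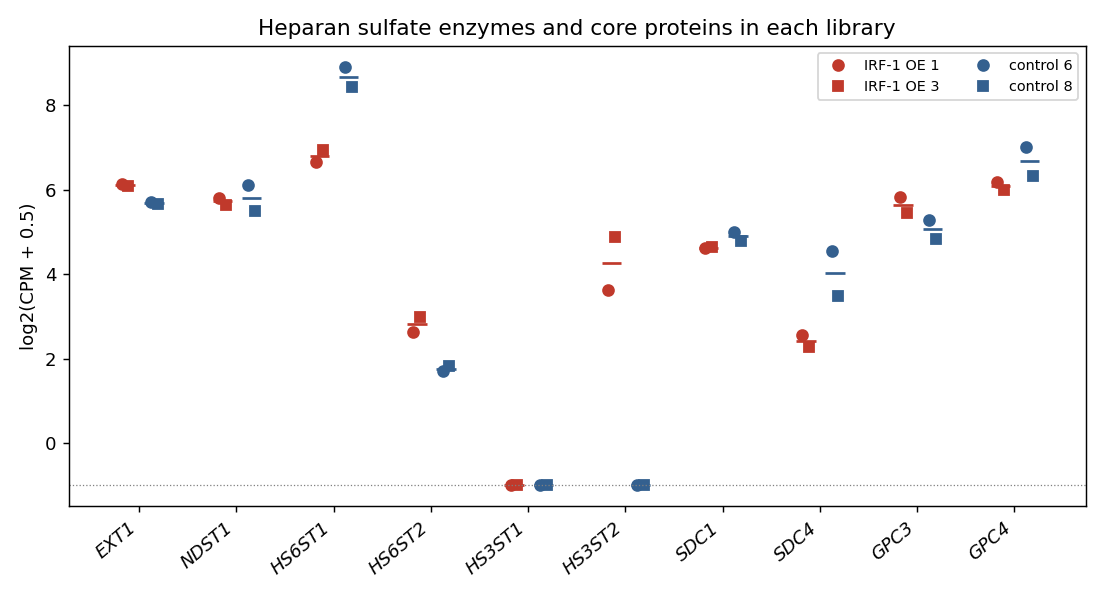
Level of the 10 genes in each library, on a vertical axis of log2(CPM + 0.5), with red for IRF-1 overexpressing cells (OE, replicates 1 and 3), blue for control cells (replicates 6 and 8) and a short line at each group's mean on that scale. The dotted line marks 0 counts, where HS3ST1 lies in all 4 libraries and HS3ST2 in the controls, and HS6ST1 has a mean of 415 ± 95.7 CPM in the controls and of 112 ± 15.7 CPM under overexpression (SD, n = 2 each).

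The syndecans are transmembrane core proteins. SDC1, on chromosome 3, 117986688 to 118011886, plus strand (identifier ENSSSCG00000008601), was at 24.0 and 24.5 CPM in the overexpressing cells and 31.5 and 27.4 CPM in the control cells, with both overexpressing libraries slightly below both controls (log2 fold change -0.28, SE 0.17). SDC4, a syndecan of focal adhesions, on chromosome 17, 47646933 to 47670461, minus strand (identifier ENSSSCG00000038594), was at 5.39 CPM in overexpressing replicate 1, 4.32 CPM in overexpressing replicate 3, 23.1 CPM in control replicate 6 and 10.8 CPM in control replicate 8. The groups did not overlap (log2 fold change -1.80, SE 0.38), but the controls differed from each other by more than the overexpressing libraries did, and without control replicate 6 the log2 fold change was -1.15. SDC2 was at 75.5 and 59.8 CPM in the overexpressing cells and 92.7 and 62.5 CPM in the control cells and was not called (log2 fold change -0.20, SE 0.21, adjusted p = 0.530, edgeR). Its sign turned without control replicate 6 (log2 fold change 0.11). SDC3 did not reach the fold change limit (log2 fold change -0.95, SE 0.26, adjusted p = 0.0297, edgeR). It was called lower without overexpressing replicate 3 (log2 fold change -1.11) and without control replicate 8 (log2 fold change -1.28). The fold was smaller without overexpressing replicate 1 (log2 fold change -0.78) and without control replicate 6 (log2 fold change -0.50), where SDC3 was not called. Of the summed syndecan RPKM, SDC2 held 61.4 and 53.3% in the overexpressing cells and 46.5 and 48.0% in the control cells, and SDC4 held 3.80 and 3.34% in the overexpressing cells and 10.04 and 7.18% in the control cells. By counts without length, SDC2 held 55.3 and 46.6% in the overexpressing cells and 39.5 and 41.4% in the control cells.

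The glypicans are core proteins held in the membrane by a lipid anchor. GPC3, known for its part in body growth and hedgehog signaling, was at 56.2 and 43.7 CPM in the overexpressing cells and 38.7 and 28.0 CPM in the control cells (log2 fold change 0.58, SE 0.21), with the overexpressing libraries above the controls. GPC4 was at 72.4 and 63.7 CPM in the overexpressing cells and 129.7 and 79.7 CPM in the control cells (log2 fold change -0.62, SE 0.23), with the overexpressing libraries below the controls. Without control replicate 6, the log2 fold change of GPC4 was -0.23. GPC3 (ENSSSCG00000012680) and GPC4 (ENSSSCG00000012679) are neighbors on the X chromosome, at 109536447 to 110060245 and 109306490 to 109421786, both on the minus strand like HS6ST2 nearby. Of these 3 genes, HS6ST2 and GPC3 were higher and GPC4 lower in the overexpressing libraries.

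GPC1 fell, at 37.3 and 60.0 CPM in the overexpressing cells and 137 and 114 CPM in the control cells (log2 fold change -1.37, SE 0.23, adjusted p = 0.00444, edgeR). GPC6 rose, at 8.49 and 12.2 CPM in the overexpressing cells and 1.66 and 4.80 CPM in the control cells (log2 fold change 1.67, SE 0.48, adjusted p = 0.0341, edgeR), but this call was lost without overexpressing replicate 3 (log2 fold change 1.39, adjusted p = 0.122, edgeR). With control replicate 8 left out, its log2 fold change was 2.64, and with control replicate 6 left out 1.10. GPC2 was at 12.3 and 11.05 CPM in the overexpressing cells and 14.1 and 9.14 CPM in the control cells and was not called, and GPC5 had 0 counts in all 4 libraries. Within the glypican sum of RPKM, GPC3 took 42.1 and 35.2% in the overexpressing cells and 21.1 and 21.4% in the control cells. GPC4 took 31.1 and 29.4% in the overexpressing cells and 40.5 and 34.95% in the control cells, and GPC1 10.02 and 17.3% in the overexpressing cells and 26.7 and 31.5% in the control cells. GPC3 thus stood first in the overexpressing libraries and GPC4 in the controls. By counts without length, GPC3 took 30.1 and 22.9% in the overexpressing cells and 12.1 and 11.9% in the control cells, GPC4 38.8 and 33.4% in the overexpressing cells and 40.4 and 33.7% in the control cells, and GPC1 20.0 and 31.5% in the overexpressing cells and 42.6 and 48.5% in the control cells. On that scale GPC4 stood first in both overexpressing libraries and GPC1 in both controls, so this order depends on the scale.

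**Figure D2:**
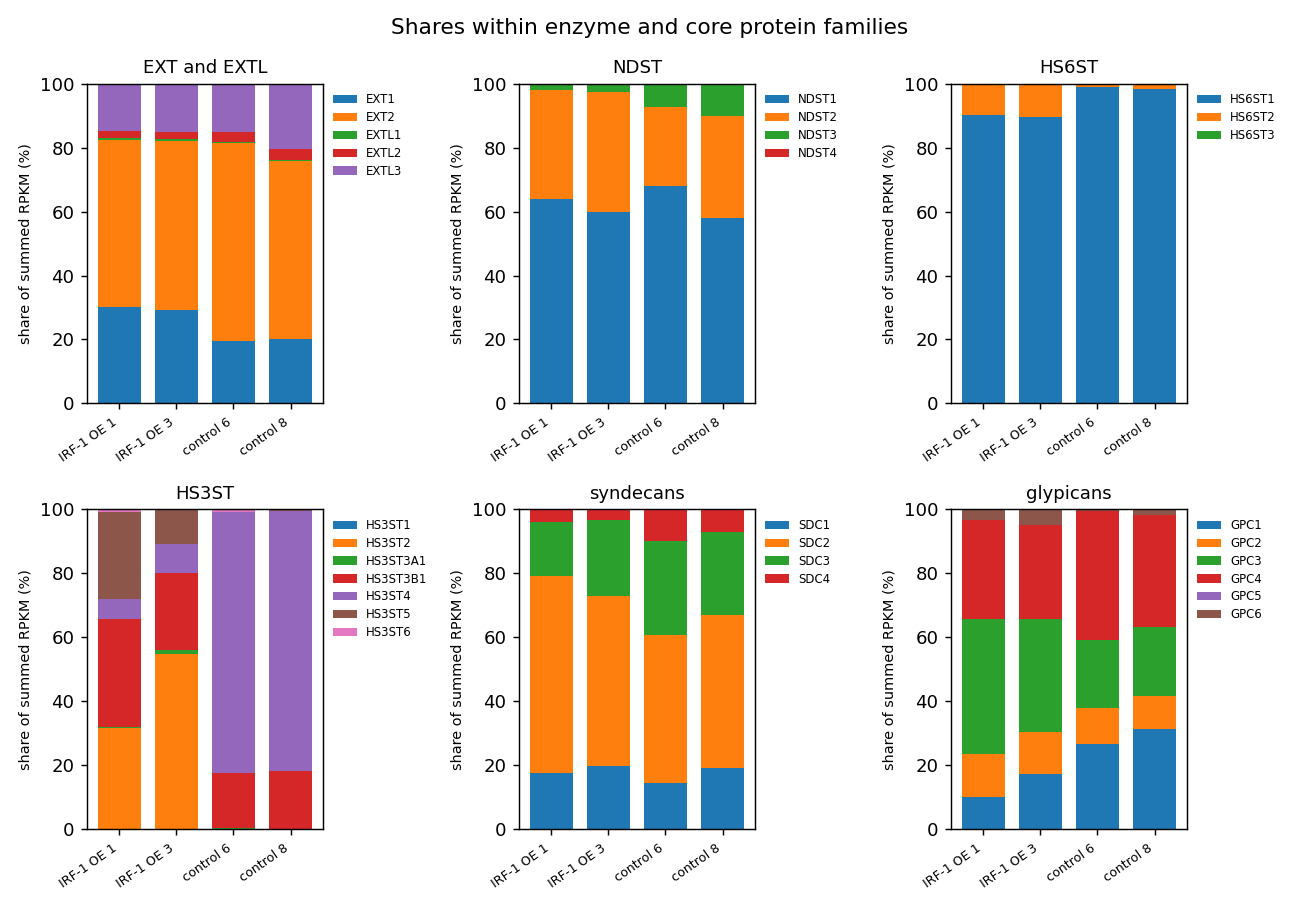
Share of each gene in the summed RPKM of its family (vertical axis, percent), with 1 stacked bar for each library and 1 panel for each of the 6 families. In the HS3ST panel HS3ST4 fills 81.6 and 81.2% of the control bars and 6.24 and 9.01% of the overexpressing bars. These shares are uncertain, since HS3ST3B1 in the same sum shares most of its exon bases with COX10.

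Across the whole table, edgeR called 1141 of 13250 tested genes higher (8.61%) and 1410 lower (10.6%) in the overexpressing cells. A call needed an adjusted p below 0.05 together with a log2 fold change of 1 or more in either direction. Without overexpressing replicate 1 these counts were 756 and 874. By the same limits, 2 of the 9 tested genes of the selected 10 were past the limit on the higher side (HS3ST2 and HS6ST2). Another 2 were past it on the lower side (HS6ST1 and SDC4). HS3ST2, at 0 counts in both controls, passed the filter through the overexpressing libraries alone. HS6ST2 was no longer past both limits without overexpressing replicate 1, overexpressing replicate 3 or control replicate 6 (log2 fold changes 1.37, 0.996 and 1.11). Nothing is read from these counts, because the genes were chosen with this comparison in view.

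The wider pathway was covered by 57 other heparan sulfate genes listed by role, of which 56 had an identifier and 49 were tested. Of these, 3 rose (PXYLP1, HS3ST5 and GPC6) and 9 fell (NDST3, HS3ST4, NOTUM, GPC1, HSPG2, AGRN, COL18A1, TGFBR3 and ARSG), beside 8.61% and 10.6% of all tested genes. HS3ST5 would not have passed the filter on its control libraries, nor HS3ST4 and NOTUM on their overexpressing libraries. All of these were also called with no filter. The median log2 fold change of the list was -0.31, beside 0.00 over all tested genes. Counts by role are small and stand beside the same shares.

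Of the 5 tested core proteins outside the syndecans and glypicans, 4 fell, among them 3 matrix proteins, beside 10.6% of all tested genes. HSPG2, which encodes perlecan of basement membranes, was at 33.4 CPM in overexpressing replicate 1, 56.5 CPM in overexpressing replicate 3, 971 CPM in control replicate 6 and 725 CPM in control replicate 8 (log2 fold change -4.24, SE 0.29, adjusted p = 0.000201, edgeR). COL18A1, collagen XVIII, was at 228 and 452 CPM in the overexpressing cells and 2405 and 1636 CPM in the control cells (log2 fold change -2.57, SE 0.33, adjusted p = 0.00146, edgeR). AGRN, agrin, was at 16.7 and 20.4 CPM in the overexpressing cells and 75.0 and 75.1 CPM in the control cells (log2 fold change -2.02, SE 0.16, adjusted p = 0.000349, edgeR). The control libraries lay above the overexpressing libraries in each of these genes. The epithelial keratin KRT8 was also higher in the controls, at 249.9 and 1014 CPM in the overexpressing cells and 12007 and 7485 CPM in the control cells. TGFBR3, or betaglycan, a co-receptor for TGF-beta ligands, also fell (log2 fold change -1.70, SE 0.19, adjusted p = 0.000891, edgeR), and SRGN, serglycin, was below 1 CPM in each library. The RPKM of HSPG2, AGRN and COL18A1 together was 29.5 and 56.6 in the overexpressing cells and 349 and 245 in the control cells. The same sum over the 10 syndecan and glypican genes was 86.2 and 79.6 in the overexpressing cells and 127 and 87.1 in the control cells. In these units the matrix sum exceeded the cell surface sum in both controls and was below it in both overexpressing libraries. Without length the sums were 278 and 529 CPM in the overexpressing cells and 3451 and 2436 CPM in the control cells for the matrix and 323 and 319 CPM in the overexpressing cells and 555 and 387 CPM in the control cells for the cell surface. On that scale the matrix sum was the higher in overexpressing replicate 3 as well, so the order there depends on the scale. These sums were not tested.

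Of the 7 linker genes, PXYLP1, a phosphatase that acts on the linker xylose, was called. It was at 35.4 and 36.2 CPM in the overexpressing cells and 12.6 and 10.4 CPM in the control cells and rose (log2 fold change 1.64, SE 0.19, adjusted p = 0.00102, edgeR). B3GALT6, the uncalled linker gene with the highest mean RPKM, was at 14.7 and 16.4 CPM in the overexpressing cells and 15.1 and 14.5 CPM in the control cells. XYLT2, a xylosyltransferase of the linker, did not reach the fold change limit (log2 fold change -0.94, SE 0.18, adjusted p = 0.00724, edgeR). It was called lower without control replicate 8 (log2 fold change -1.07) and with no minimum fold change. The epimerase GLCE and the 2-O-sulfotransferase HS2ST1 were not called, with log2 fold changes of -0.55 (SE 0.17) and -0.27 (SE 0.14). Among enzymes that act outside the cell, NOTUM, a secreted hydrolase known to act on WNT proteins, fell (log2 fold change -1.87, SE 0.48, adjusted p = 0.0230, edgeR) from low counts of 27 and 29 in the controls to 13 and 8. NOTUM would not have passed the filter on its overexpressing libraries, but it was also called with no filter. Its call was lost when any 1 of the 4 libraries was left out, with edgeR log2 fold changes between -2.10 and -1.68. It was also lost with DESeq2 (log2 fold change -1.89, adjusted p = 0.0876). The fold thus stayed about as large where the call was lost. The 6-O-endosulfatase SULF2 was at 66.4 and 76.9 CPM in the overexpressing cells and 148 and 134 CPM in the control cells and lay just short of the fold change limit (log2 fold change -0.98, SE 0.15, adjusted p = 0.00288, edgeR). It was called lower without overexpressing replicate 3 (log2 fold change -1.08, adjusted p = 0.0120, edgeR) and without control replicate 8 (log2 fold change -1.04, adjusted p = 0.000458, edgeR).

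None of the 8 tested genes for the sulfate donor and none of the 3 for the sugar donors was called by edgeR. Among them, SLC35B2 had 47 and 34 counts in the overexpressing cells and 22 and 30 counts in the control cells. Its level is uncertain, since 3311 of its 3676 exon bases are shared with HSP90AB1 on the opposite strand. PAPSS1, which makes the sulfate donor PAPS, was at 73.9 and 82.1 CPM in the overexpressing cells and 109 and 119 CPM in the control cells (log2 fold change -0.55, SE 0.14, adjusted p = 0.0235, edgeR). UGDH, which makes UDP-glucuronic acid, was at 191 and 213 CPM in the overexpressing cells and 161 and 190.4 CPM in the control cells (log2 fold change 0.20, SE 0.15, adjusted p = 0.352, edgeR). Of the 7 tested genes of lysosomal breakdown, ARSG, a sulfatase for 3-O-sulfated glucosamine, fell (log2 fold change -1.29, SE 0.38, adjusted p = 0.0373, edgeR). This call was lost without overexpressing replicate 1 (log2 fold change -0.98, adjusted p = 0.229) and without control replicate 8 (log2 fold change -0.97, adjusted p = 0.117), both by edgeR. GUSB, beta-glucuronidase, was at 66.5 and 69.4 CPM in the overexpressing cells and 109.5 and 70.2 CPM in the control cells and was not called. IDUA, an iduronidase, was called lower only without control replicate 8 (log2 fold change -1.04, adjusted p = 0.00682, edgeR).

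**Figure D3:**
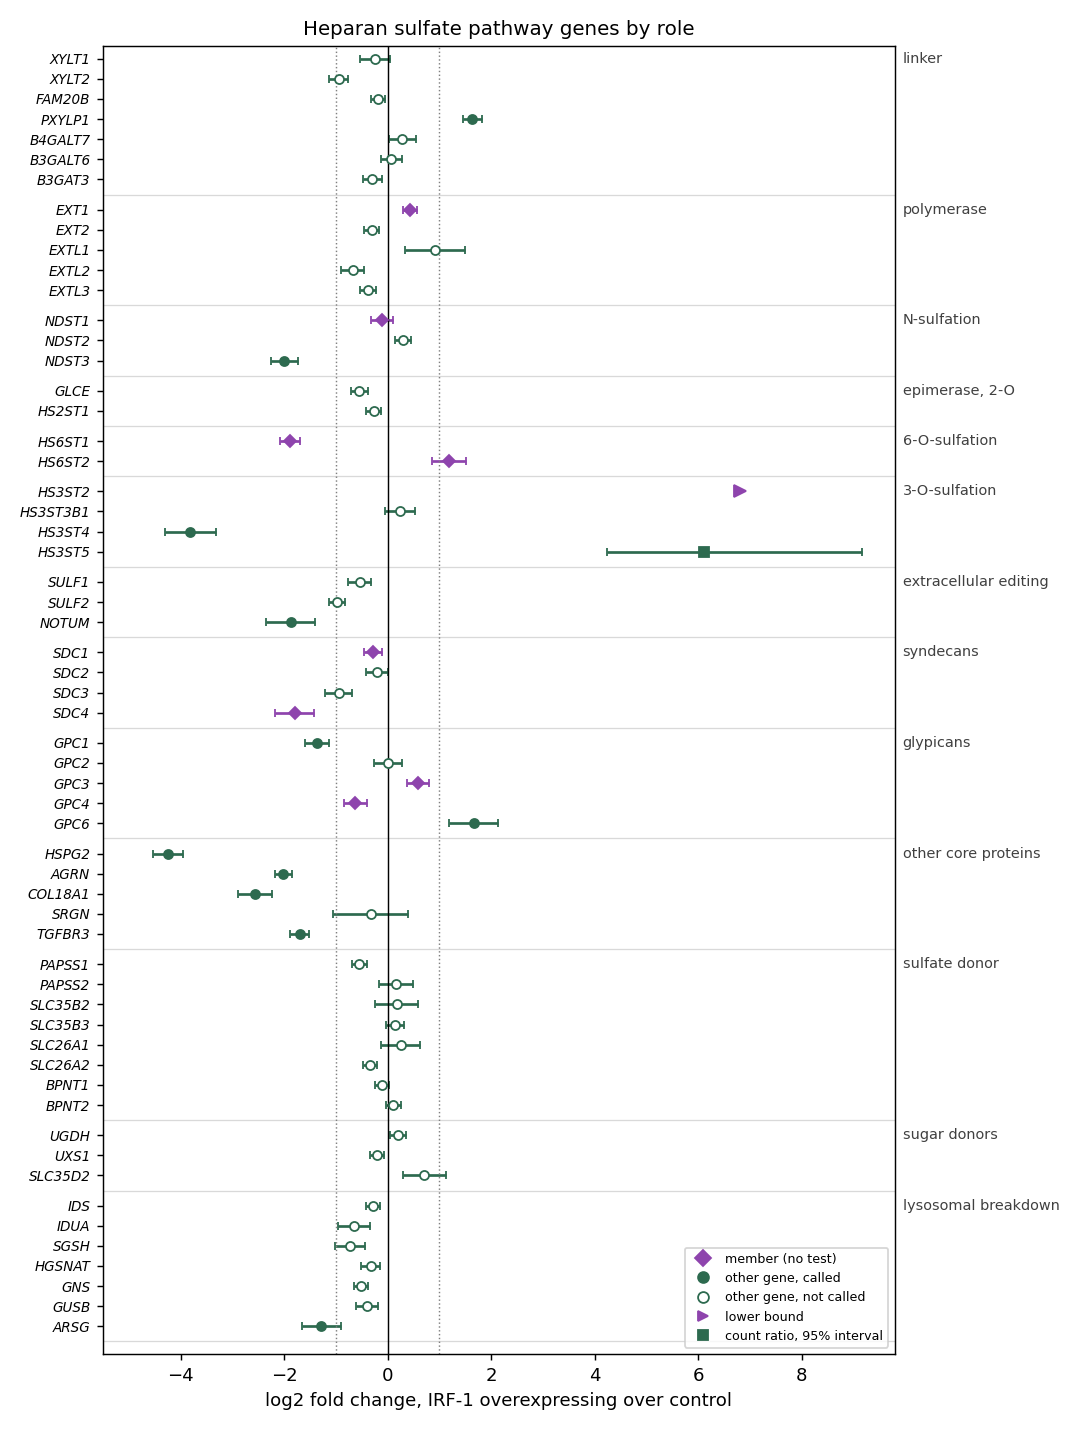
Log2 fold change of each tested heparan sulfate gene (horizontal axis, IRF-1 overexpressing over control cells, dotted lines at -1 and 1), grouped by role, with bars for the SE, filled green points for called and open points for uncalled genes, and purple diamonds for the selected genes, which carry no test. HS3ST2 is a lower bound against the floor (triangle), HS3ST5 is the ratio of counts with its 95% counting interval (square), and HSPG2 lies at -4.24.

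Chondroitin sulfate, the branch that starts from the same linker, was taken for comparison. Of 16 listed enzyme genes, 15 had an identifier and 12 were tested. Of these, 1 rose and 3 fell, beside 8.61% and 10.6% of all tested genes, and the median log2 fold change was -0.46. CHST11, a 4-O-sulfotransferase of chondroitin, was at 16.0 and 12.3 CPM in the overexpressing cells and 1.47 and 0.914 CPM in the control cells and rose (log2 fold change 3.57, SE 0.35, adjusted p = 0.000644, edgeR). UST, the uronyl 2-O-sulfotransferase, fell (log2 fold change -1.59, SE 0.20, adjusted p = 0.00143, edgeR). CHST14 and DSEL, which act in the dermatan form of the chain, fell as well (log2 fold change -1.13, SE 0.27, adjusted p = 0.0186 for CHST14, and log2 fold change -1.30, SE 0.27, adjusted p = 0.01 for DSEL, edgeR), but both calls were lost without overexpressing replicate 1 (log2 fold change -0.79, adjusted p = 0.118 for CHST14, and log2 fold change -1.22, adjusted p = 0.0745 for DSEL, edgeR). CHPF, a chondroitin polymerizing factor, was the uncalled gene with the highest mean RPKM (log2 fold change -0.59, SE 0.14, adjusted p = 0.0161, edgeR). CSGALNACT1, which starts the chondroitin chain, had 21 and 8 counts in the overexpressing cells and 0 and 0 counts in the control cells. It did not pass the filter, was chosen after its values were seen, and was at least 3.38-fold higher against a floor of 3 counts in each control library, and at least 2.12-fold without overexpressing replicate 1. Without overexpressing replicate 3, control replicate 6 or control replicate 8 it passed the filter through the overexpressing libraries alone. The count of enzyme genes called higher was then 2 in place of 1, from which nothing is read. Without overexpressing replicate 1, 1 enzyme gene was called lower in place of 3, and without control replicate 8 CHPF2 was called lower as well (log2 fold change -1.03, adjusted p = 0.00186, edgeR). The difference between the chondroitin and heparan sulfate lists was not tested.

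Markers of cell types were listed beside these results, and some of them were called. The counts of called markers in each list stand beside 8.61% higher and 10.6% lower of all tested genes. Of 9 trophoblast markers, the epithelial keratins KRT8 and KRT18 fell with the matrix core proteins (log2 fold change -3.95, SE 0.61, adjusted p = 0.00300 for KRT8, and log2 fold change -5.77, SE 0.82, adjusted p = 0.00223 for KRT18, edgeR). Without overexpressing replicate 1 these were -3.25 and -4.96, and without overexpressing replicate 3 -5.28 and -7.65. TFAP2C fell too (log2 fold change -2.82, SE 0.27, adjusted p = 0.000551, edgeR), while TFAP2A rose, at 30.9 and 42.8 CPM in the overexpressing cells and 2.88 and 2.69 CPM in the control cells (log2 fold change 3.72, SE 0.26, adjusted p = 0.000206, edgeR). The list had 1 higher and 3 lower of 6 tested, with GATA2 and GATA3 not called. Their log2 fold changes took either sign with a library left out, between -0.72 and 0.51 for GATA2 and between -0.29 and 0.55 for GATA3. The summed level of the list was 309.9 and 1156 CPM in the overexpressing cells and 15588 and 9548 CPM in the control cells. KRT8 was its most abundant gene in each library, so the sum mostly follows KRT8. The defining genes of the list, CDX2 and HAND1, were at 0 counts in all 4 libraries. Of 8 neural markers, 7 had an identifier, with 3 higher and 0 lower of 6 tested and a sum of 696 and 287 CPM in the overexpressing cells and 85.7 and 93.9 CPM in the control cells. TUBB3 was at 351 and 117 CPM in the overexpressing cells and 6.20 and 10.6 CPM in the control cells and rose (log2 fold change 4.80, SE 0.54, adjusted p = 0.000961, edgeR, and log2 fold change 3.81 and 5.39 with overexpressing replicate 1 or 3 left out, in that order). STMN2 was at 327 and 155 CPM in the overexpressing cells and 72.7 and 76.2 CPM in the control cells and rose (log2 fold change 1.69, SE 0.31, adjusted p = 0.00636, edgeR, and log2 fold change 1.07 without overexpressing replicate 1). NEUROG1, with 117 and 127 counts in the overexpressing cells and 1 and 1 counts in the control cells, was the other gene called higher (adjusted p = 0.000522, edgeR). It would not have passed the filter on its control libraries, but it was also called with no filter. DCX was added with no filter and without overexpressing replicate 3 (log2 fold change 2.17 without that library, edgeR). PAX6 and ELAVL4, also tested, were not called. With each library left out in turn, the log2 fold change of PAX6 lay between -2.47 and -0.79, against the direction of the called neural markers. That of ELAVL4 lay between 0.46 and 0.65. Overexpressing replicates 1 and 3 differed from each other in these lists, the neural sum being higher in replicate 1 and the trophoblast sum higher in replicate 3.

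Of 10 pluripotency markers, 6 had an identifier, and POU5F1, SOX2, DPPA3 and SALL4 were not analysed here. The list had 0 higher and 3 lower of 5 tested, beside the 8.61% and 10.6% of all tested genes, and its sum was 1233 and 1277 CPM in the overexpressing cells and 1479 and 1641 CPM in the control cells, with DNMT3B the most abundant in each library. LIN28A was at 164 and 186 CPM in the overexpressing cells and 506 and 382 CPM in the control cells and fell (log2 fold change -1.34, SE 0.17, adjusted p = 0.00146, edgeR), ESRRB also fell (log2 fold change -4.19, SE 0.31, adjusted p = 0.000246, edgeR), and NANOG was below 1 CPM in each library. CDH1 fell as well (log2 fold change -2.25, SE 0.42, adjusted p = 0.00676, edgeR, and log2 fold change -1.66 and -3.21 with overexpressing replicate 1 or 3 left out, in that order). Of 8 fibroblast markers, which would mark the source cells or feeders, 7 had an identifier, with 1 higher and 3 lower of 4 tested and a sum of 143 and 87.5 CPM in the overexpressing cells and 204 and 105 CPM in the control cells. COL1A2 was at 139 and 81.2 CPM in the overexpressing cells and 64.3 and 39.9 CPM in the control cells and rose (log2 fold change 1.08, SE 0.30, adjusted p = 0.0301, edgeR), a call lost without overexpressing replicate 1 (log2 fold change 0.65, adjusted p = 0.184, edgeR) and without control replicate 8 (log2 fold change 0.78, adjusted p = 0.0438, edgeR). PDGFRB was at 1.13 and 2.98 CPM in the overexpressing cells and 126 and 55.9 CPM in the control cells and fell (log2 fold change -5.49, SE 0.53, adjusted p = 0.000595, edgeR), with a log2 fold change of -6.32 without overexpressing replicate 3 and -4.79 without control replicate 6. COL1A1 fell (log2 fold change -1.97, SE 0.35, adjusted p = 0.00547, edgeR). DCN fell from low levels, with 3 and 1 counts in the overexpressing cells and 19 and 19 counts in the control cells. These were 0.121 and 0.0480 CPM in the overexpressing cells and 1.22 and 1.09 CPM in the control cells. By edgeR it was called lower (log2 fold change -3.63, SE 0.67, adjusted p = 0.00651). DCN, 1 of the 3 genes called lower, would not have passed the filter on its overexpressing libraries, but was also called with no filter. Leaving out overexpressing replicate 1 gave a log2 fold change of -4.38. Leaving out overexpressing replicate 3 gave -3.18, and the call was lost. Of 5 endoderm markers, 4 had an identifier and none of the 2 tested was called by edgeR, although PDGFRA was called lower without control replicate 8 (log2 fold change -1.93, adjusted p = 0.0483, edgeR), with 2 other normalizations and with either other filter. In this list GATA6 was the most abundant in each library, FOXA2 was at 0 counts, and the sum was 38.3 and 58.4 CPM in the overexpressing cells and 47.6 and 44.0 CPM in the control cells. The part of these markers in the heparan sulfate results was not tested.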

How the data were processed

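For 4 RNA-seq libraries, the deposited values are raw gene counts with no normalization, and the authors' table also lists exon lengths in bases. Per the methods, reads were trimmed with trim_galore, mapped to Sus scrofa 11.1 with HISAT2 and counted with featureCounts (subread 1.6.4). Strand setting and multi-mapped reads are not given in the sources used here. ChIP-seq libraries were not analysed here. The members and lists were chosen with earlier results of these data known.

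Counts were tested with edgeR 4.0.16 in R 4.3.3 (TMM, filterByExpr by group, quasi-likelihood test, Benjamini-Hochberg adjustment over 13250 genes). The SE is the log2 fold change divided by the square root of F. Named genes were the 10 members, IRF1, the rest of their families, every other listed gene called, and the uncalled gene with the highest mean RPKM of each role. Genes newly called with a library left out, and SLC35B2 for its shared exon bases, were also named. Of 24358 identifiers, 14692 were named by the gene name table, and SDC4, EXT2 and HGSNAT by RefSeq spans sharing at least 80% of both lengths, a step chosen after the table was seen. CHST12 and NAGLU were not matched. Replicates differed beyond counting error (chi-square divided by its degrees of freedom, 17.9 and 31.3). A count was worth 0.0402 to 0.0640 CPM. Alternatives were other normalizations and filters, DESeq2 1.42.0, limma-voom (limma 3.58.1), no minimum fold change, removal of mitochondrial and the 10 most counted genes, each library left out, and shares of counts. The alternatives for markers, family and core protein sums without length, shares of counts for genes other than the members, and values without 1 library for folds against a floor or as count ratios, were chosen after seeing the data. The edgeR test was tested on simulated data.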

Additional observations from a re-analysis of the deposited data

How the results depend on the processing

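Other normalizations, limma-voom, the stricter filter and the removal of mitochondrial and highly counted genes left each count of called genes within 1.5 times its value. With no minimum fold change, 1842 of all genes were called higher, 15 other heparan sulfate genes lower, and 2 chondroitin enzyme genes higher and 5 lower, since this limit is looser by construction. With no filter and with DESeq2, 2 and 2 chondroitin enzyme genes were called higher, CSGALNACT1 then being tested. With each library left out in turn, which assumes that the lone library of a group varies like the others, 756 to 1156 genes were called higher and 874 to 1548 lower over the table, 2 to 3 and 7 to 11 among the other heparan sulfate genes, and 1 to 2 and 1 to 4 among the chondroitin enzymes. The lowest counts over the table came without overexpressing replicate 1, and the cause was not tested.

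Of the 16 calls among the listed genes, 11 held under all 12 alternatives that refit the genes, and none changed sign. The NOTUM call was lost with DESeq2 (adjusted p = 0.0876) and, by edgeR, without overexpressing replicate 1 (0.128), overexpressing replicate 3 (0.166), control replicate 6 (0.0747) and control replicate 8 (0.0644). For the selected genes, 99 of 108 refitted log2 fold changes moved by less than the spread between replicates (1 SD). Of the 9 that moved further, 7 came from leaving out a library. Leaving out 1 of 2 libraries can shift a group's mean log level by about 1 SD at most, and the other alternatives reuse the same libraries. Nothing is thus read from how many moved further. No paired analysis was possible because the groups share no replicate number. With 2 libraries a group, genes of a few counts, such as HS3ST3A1, HS3ST6 and NDST4, could not be compared at this depth.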
